A study of Mus musculus with 6 samples.

Results

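The transcripts of the control mouse uterus on day 4 of pregnancy were described from the 3 samples titled Control, out of 6 samples in the series. The other 3 samples, uteri without *Gp130* in the epithelium, were not used, and nothing was compared between genotypes. The control females were adult mice whose labels give the strain as C57BL/6, the genotype as WT and the time as 1600 h on day 4. The methods of the study give the background as C57BL/6J. According to the methods of the study, a control female was either wildtype or carried floxed *Gp130* without *Ltf*-iCre, and the labels do not say which of these each uterus was. The labels name the tissue as uterus and the design text as endometrium. They do not say whether each sample came from 1 female, so the spread given here is the spread between these samples. Poly(A) RNA was read with a strand-specific kit, and the values are the deposited TPM, a share of transcripts scaled for gene length that sums to 1000000 in each uterus, and the expected counts, the number of reads that RSEM assigned to a gene.

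On day 4 the uterus prepares for the attaching blastocyst. Progesterone (P4) and estrogen (E2) act on a luminal epithelium, on glands that secrete leukemia inhibitory factor (LIF) and proteases, and on a stroma that later becomes the decidua. Around these lie smooth muscle, vessels and immune cells, so the RNA of a whole uterus is a mixture. In such a mixture, fewer cells of a type and less RNA per cell cannot be told apart.

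Expected counts summed to 25337964 in control 1, 25906375 in control 2 and 13960725 in control 3, so control 3 had the least depth. At a TPM of at least 1 there were 14332, 14497 and 15221 genes, and 13382 genes reached it in all 3 uteri, of which 12091 code for proteins. Control 3 also stood apart in its RNA. Across 8413 genes with a mean TPM of at least 10, the Spearman correlation was 0.891 between controls 1 and 2, 0.856 between controls 1 and 3 and 0.849 between controls 2 and 3, where genes are not independent replicates. *Xist*, the noncoding RNA that coats the inactive X chromosome, had 4.94 TPM in control 1, 5.81 in control 2 and 194 in control 3. *Tagln*, an actin-binding protein of smooth muscle, had 743, 582 and 113 TPM. The transcripts of 4 Y-linked genes were at or below 0.01 TPM in every uterus.

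The most abundant entries of all 3 uteri came from mitochondria, or from a stretch of chromosome 1 that copies mitochondrial DNA. *Atp6-ps* (ENSMUSG00000100862), annotated as a pseudogene on the minus strand of chr1:24653055-24653732 (GRCm39), had the highest TPM of every uterus. It had 31175 TPM in control 1, 25773 in control 2 and 25441 in control 3, a mean of 27463 ± 3219 TPM (SD, n = 3). *Gm28437* had rank 2 in every uterus, with 28033, 22451 and 18835 TPM, and *Gm28661* had rank 4, with 16916, 13758 and 18352 TPM. These entries are copies of *mt-Atp6*, *mt-Co3* and *mt-Co2*, the genes for an ATP synthase subunit and for cytochrome c oxidase subunits. The first 80 bases of *Atp6-ps* (chr1:24653653-24653732, minus strand) are shown because they are the same, base for base, as chrM:7927-8006 of *mt-Atp6*.
Atp6-ps: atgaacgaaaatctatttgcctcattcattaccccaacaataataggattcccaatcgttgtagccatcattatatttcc
The copy of *mt-Co1*, *Gm29216*, differs from its source in its first bases. The next lines show it (chr1:24655226-24655278, minus strand) beside chrM:6381-6433, with the 6 bases that differ in capitals.
Gm29216: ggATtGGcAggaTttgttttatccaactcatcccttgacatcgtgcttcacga
mt-Co1: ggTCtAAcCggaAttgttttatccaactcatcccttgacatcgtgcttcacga
Over their aligned length, 6 of the 7 copies in this stretch matched the mitochondrial genome at 100%, and *Gm29216* matched at 99.8% with 1 mismatch. In 5 copies, every window of 75 bases, the length of a read, also occurred in the mitochondrial genome. In *Gm29216* this was so for 405 of 418 windows and in *Gm28438* for 268 of 271.

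Reads from windows that occur in both genomes cannot be placed on the nuclear or the mitochondrial copy by their sequence, and the share given to the copy differed between genes and between uteri. *Gm28661* held 98.3%, 97.98% and 99.1% of the summed TPM of itself and *mt-Co2*. *Gm28439*, the copy of *mt-Nd4*, held 3.11%, 5.16% and 28.6%. *Gm29216* held 11.1% and 25.7% in controls 1 and 2 and was listed at 0 in control 3. Where gene and copy are about equally long, their TPM can be summed. For *mt-Atp6* with *Atp6-ps* the sum was 32358, 26766 and 26061 TPM, a 1.24-fold range. For *mt-Nd3* with *Gm28438* it was 8020, 10334 and 5712 TPM, so these uteri still differed by 1.81-fold. *Gm29216* and *Gm28439* are shorter than *mt-Co1* and *mt-Nd4*, and a read moved to the shorter copy adds more TPM, so a sum of these depends on the split. For *mt-Nd4* with *Gm28439* it was 5542, 4816 and 8037 TPM.

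The 37 mitochondrially encoded genes held 6.03%, 5.39% and 6.90% of summed TPM, and the 7 nuclear copies held 8.88%, 7.88% and 7.31%. Together they held 14.9%, 13.3% and 14.2%, a mean of 14.1% ± 0.824 (SD, n = 3). *mt-Co1* led the mitochondrially encoded genes with 17974, 13006 and 18831 TPM. *mt-Atp8*, another ATP synthase subunit, had 10154, 8050 and 9474 TPM, and *mt-Cytb*, a subunit of respiratory complex III, had 9170, 7596 and 9441 TPM. The complex I genes *mt-Nd1*, *mt-Nd2* and *mt-Nd4* had means of 7978, 3980 and 5224 TPM. The 2 mitochondrial ribosomal RNAs were low, at 415, 428 and 416 TPM for *mt-Rnr1* and 252, 269 and 209 TPM for *mt-Rnr2*, in libraries from which ribosomal RNA reads had been removed. The other 22 mitochondrial genes, the transfer RNAs, were listed at 0 in every uterus. *mt-Nd6* differed by 2.68-fold between its highest and lowest uterus, with 1413, 3738 and 3794 TPM, and *mt-Nd5* by 2.7-fold, with 805.5, 1582 and 2177 TPM.

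**Figure D1:**
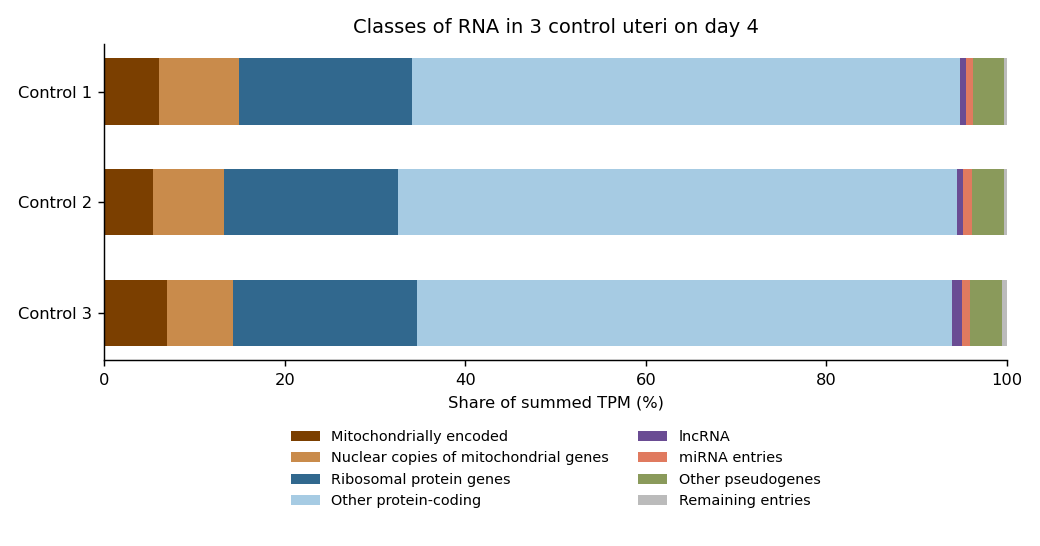
Share of summed TPM (percent, x axis) held by 8 classes of entries in each of the 3 control uteri (bars). Mitochondrially encoded genes and their nuclear copies together held between 13.3% and 14.9%, and ribosomal protein genes between 19.2% and 20.4%.

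Protein-coding genes of the nucleus followed, led by the machinery of translation. *Eef1a1* (ENSMUSG00000037742, chr9:78384916-78396778, minus strand), which brings aminoacyl-tRNA to the ribosome, had 12113 TPM in control 1, 15523 in control 2 and 9407 in control 3, with ranks of 5, 3 and 9. *Tpt1* (ENSMUSG00000060126, chr14:76082454-76088170, plus strand), a conserved growth-related protein, had 9454, 10675 and 11330 TPM. The 79 ribosomal protein genes held 19.2% of summed TPM in controls 1 and 2 and 20.4% in control 3. Among them *Rps12* was highest with 7605, 5803 and 8262 TPM, followed by *Rplp1* with 6045, 5780 and 7064 TPM and *Rpsa* with 5757, 5375 and 6982 TPM. The lowest was *Rpl39* with 581, 537 and 625 TPM, and 76 of the 79 had a mean of at least 1000 TPM.

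The ribosomal protein genes also varied little between uteri. Their median coefficient of variation (CV, the SD divided by the mean) was 8.71%, against 19.4% over all 8413 genes with a mean TPM of at least 10. At a mean of at least 1000 TPM, which 76 of the 79 reached, the median CV over all 143 genes was 12.2%. *Rplp0*, a protein of the ribosomal stalk, had 3789, 3812 and 3698 TPM, a CV of 1.60%. A single member, *Rpl29*, differed by over 2-fold, with 932, 486 and 1328 TPM. Over all 8413 genes, 1705 did so, which is 20.3%. Of the 143 genes with a mean of at least 1000 TPM, 19 did so (13.3%). Processed pseudogenes of many ribosomal protein genes share their sequence, so the split of reads among them is uncertain.

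None of 13 translation factors differed by over 2-fold between uteri, beside 20.3% of all genes. At a mean of at least 1000 TPM that share of all genes was 13.3%. The 13 factors summed to 21443, 25116 and 19466 TPM, a 1.29-fold range. *Eef1b2*, which recharges Eef1a1 with GTP, had 2248, 2311 and 2461 TPM. *Eef2*, which moves the ribosome along the message, had 1331, 1838 and 1076 TPM.

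Of the 30 entries with the highest mean TPM, 6 were mitochondrially encoded, 4 were nuclear copies of mitochondrial genes and 14 were ribosomal protein genes. The others were *Eef1a1*, *Tpt1*, *Ctsd*, *Actb*, *Tmsb4x* and the entry *Gm56125*. Between the uteri, 24 entries were shared by the 3 lists of the 30 highest and 83 by the lists of the 100 highest. The 100 highest entries of each uterus held 39.7%, 38.98% and 40.2% of its summed TPM. Of the 100 entries with the highest mean, 8 differed by over 2-fold between uteri, among them *Ctsd*, *Ctla2a* and *Tmem176b*.

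**Figure D2:**
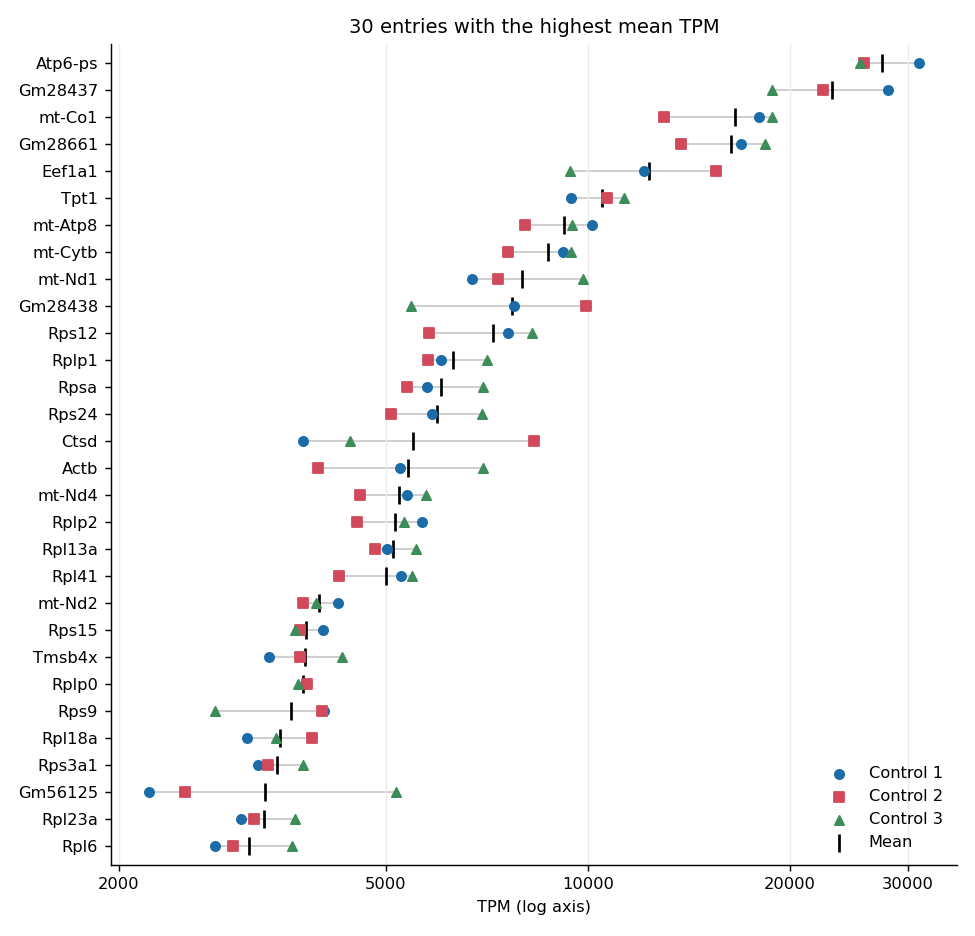
TPM (x axis, log scale) of the 30 entries with the highest mean over the 3 control uteri, with 1 symbol per uterus and a black bar at the mean. *Atp6-ps* lies highest in every uterus, and *Ctsd* and *Gm56125* span more than 2-fold.

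*Ctsd* (ENSMUSG00000007891, chr7:141929646-141941775, minus strand), the lysosomal protease cathepsin D, had 3759 TPM in control 1, 8316 in control 2 and 4415 in control 3. Its ranks were thus 24, 8 and 22. The entry *Gm49369*, which overlaps *Ctsd* on the same strand, had 1110, 4998 and 1647 TPM, so that reads may be split between them. The sum of both was 4869, 13313 and 6062 TPM and was again highest in control 2. Other cathepsins did not share this order. *Ctsb* had 2005, 861 and 1101 TPM and *Ctsl* 225, 154 and 110 TPM, both highest in control 1, and control 1 was highest in 7 of the 10 cathepsins, a list added after values had been seen.

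The cytoskeleton gave the next group. *Actb*, the nonmuscle beta-actin, had 5242, 3954 and 6979 TPM. *Tmsb4x*, the actin-monomer binding thymosin beta 4, had 3353, 3730 and 4295 TPM. Of 13 thymosin and cytoskeleton genes, 2 differed by over 2-fold, beside 20.3% of all genes. They were *Tpm1* with 448, 578 and 254 TPM and *Tpm2* with 471, 350 and 155 TPM. These 2 tropomyosins are thin-filament proteins of muscle, and control 3 was their lowest uterus. Without control 3 none of the 13 genes differed by over 2-fold, and without control 2 it was 1.

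Iron storage and antioxidant genes were also abundant. *Fth1*, the ferritin heavy chain, had 3327, 2892 and 2901 TPM, and *Ftl1*, the light chain, had 1206, 1544 and 1835 TPM. The metallothioneins *Mt1* and *Mt2*, which bind zinc and copper, were the 2 of 12 genes of this list that differed by over 2-fold. That count is near the 20.3% of all genes that did so. *Mt1* had 513, 1806 and 1139 TPM and *Mt2* had 387, 1376 and 785 TPM, each lowest in control 1 and highest in control 2. Without control 1 neither differed by over 2-fold.

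Some genes known from the uterus itself reached the same levels. *S100g* (ENSMUSG00000040808, chrX:161744988-161747617), the calcium-binding protein calbindin-D9k, had 2802, 3112 and 2167 TPM. *Ctla2a* (ENSMUSG00000044258, chr13:61081967-61084449), a small inhibitor related to the cathepsin propeptide, had 2366, 1898 and 4824 TPM and was over 2-fold above both others in control 3. *Wfdc2*, a secreted protein of the protease-inhibitor type, had 2065, 1526 and 1017 TPM. *Alox15* (ENSMUSG00000018924, chr11:70234970-70242858), a P4-responsive lipoxygenase of the epithelium, had 1033, 384 and 1656 TPM, so that control 2 was the lowest by more than 2-fold.

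A few short entries reached high TPM on few reads. *Gm56125*, annotated as a miRNA, lies within *Ftl1* on the same strand at chr7:45107513-45107621 and had 2218, 2512 and 5185 TPM, from 1513, 1707 and 1909 expected counts. *Gm54878* (chr11:97920239-97920318, within a coding exon of *Rpl19*), *Gm55064*, *Gm54440* and *Gm55239* had the same values, 1363, 1611 and 789 TPM, from 137, 161 and 42.7 expected counts each. Their effective length, the number of start positions a read can take, was 5.02 bases. The sequence of the 80 bases is shown because it is identical at the 4 loci on chromosomes 11, 8, 15 and 1.
Gm54878: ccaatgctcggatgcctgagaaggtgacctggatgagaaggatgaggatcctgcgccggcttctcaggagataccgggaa
Of 2201 miRNA entries, 49 had a mean TPM of at least 1, and the class held 0.874%, 1.02% and 0.943% of summed TPM. The libraries were made from poly(A) RNA, so these values are not levels of mature miRNAs.

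The spread between uteri fell with the level of a gene. The median CV was 34.5% for 6512 genes with a mean TPM from 1 to 10 and 20.3% for 5664 genes from 10 to 50. It was 17.7% for 1404 genes from 50 to 100, 17.3% for 1202 genes from 100 to 1000 and 12.2% for 143 genes above. The counting error alone, taken as 1 over the square root of the lowest expected count, had medians of 11.4%, 4.37%, 3.03%, 2.18% and 0.862% in these classes. The biological coefficient of variation, which edgeR estimates after allowing for counting error, was 0.363 over the 15334 genes with enough counts to be kept, and 0.327 without control 3. With no such filter, over 27491 genes, it was 0.445.

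**Figure D3:**
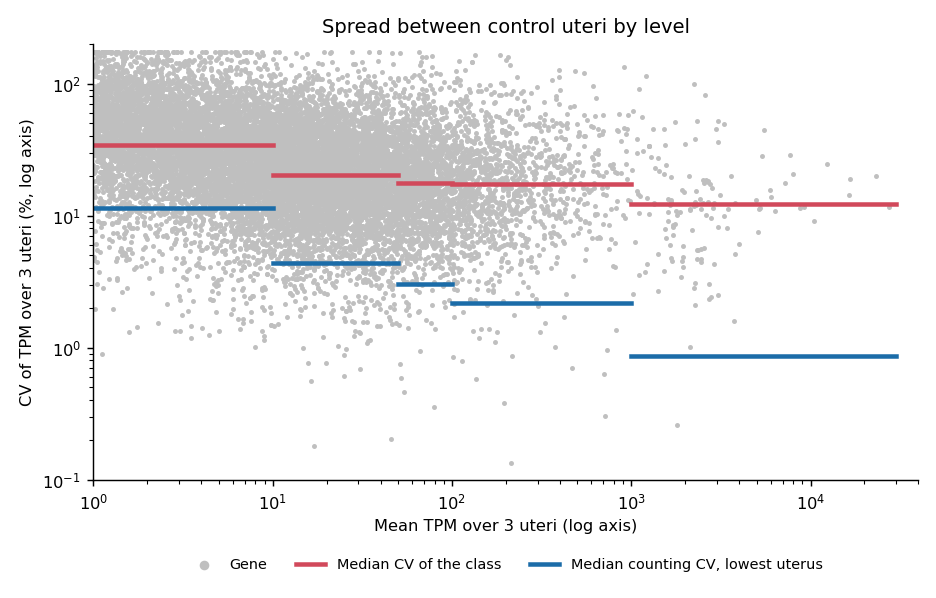
CV of TPM over the 3 control uteri (percent, log scale) against mean TPM (log scale), with 1 point per gene. Red lines give the median CV of each class of level, from 34.5% down to 12.2%, and blue lines the median counting error of the lowest uterus, from 11.4% down to 0.862%.

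The 10 most even coding genes with a mean of at least 100 TPM had CVs from 0.134% to 0.864%. *Mrps21*, a protein of the mitochondrial ribosome, had 212.8, 212.6 and 212.2 TPM. *Rpl14* had 1802, 1795 and 1803 TPM, and *Hnrnpk*, an RNA-binding protein, had 716, 720 and 716 TPM. The others were *Mlf2*, *Surf4* (a cargo receptor of the endoplasmic reticulum), *Gnas* (the stimulatory G protein alpha subunit), *Pcbp2* (an RNA-binding protein), *Stoml2*, *Ptpa* and *Ppp1cc* (2 genes of protein phosphatases). For *Mrps21* the counting error in the lowest uterus was 3.63%, so a CV this small is below what counting error alone gives. These genes were picked for their small spread, from 1236 coding genes with a mean of at least 100 TPM.

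Of 13 genes used as references in expression studies, 1 differed by over 2-fold, beside 20.3% of all genes. *Tbp* had 27.3, 28.6 and 29.6 TPM and *Ywhaz* 379, 337 and 372 TPM. *Gapdh*, a glycolytic enzyme, had 968, 602 and 725 TPM, and *Actb* differed by 1.76-fold.

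The 15 coding genes with a mean of at least 50 TPM and the largest ratio of highest to lowest uterus were chosen for that ratio, and their values are a description. Control 2 was the lowest uterus in 13 of them. *Prss28* (ENSMUSG00000024171, chr17:25527617-25530852, plus strand) and *Prss29* (ENSMUSG00000034039, chr17:25537620-25541659, plus strand) are neighbouring genes for serine proteases that uterine glands secrete. *Prss28* had 203 TPM in control 1, 0.55 in control 2 and 10.4 in control 3, from 4396, 12 and 123 expected counts. *Prss29* had 583, 1.99 and 29.7 TPM, from 12931, 44 and 355 expected counts. Both genes thus had the same order over the uteri, with control 1 above the nearer of the others by 19.6-fold for *Prss28* and 19.7-fold for *Prss29*.

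The 250 bases before the annotated starts of these neighbours are shown because the genes differed in the same order and both hold the letters TATAAA close to the start, in capitals. The first is chr17:25527367-25527616 and the second chr17:25537370-25537619, both on the plus strand of GRCm39.
Prss28: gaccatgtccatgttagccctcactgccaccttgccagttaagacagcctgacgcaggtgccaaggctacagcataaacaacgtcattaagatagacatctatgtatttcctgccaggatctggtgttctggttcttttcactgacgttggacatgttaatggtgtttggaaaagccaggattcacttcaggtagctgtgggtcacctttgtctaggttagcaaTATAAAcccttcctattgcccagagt
Prss29: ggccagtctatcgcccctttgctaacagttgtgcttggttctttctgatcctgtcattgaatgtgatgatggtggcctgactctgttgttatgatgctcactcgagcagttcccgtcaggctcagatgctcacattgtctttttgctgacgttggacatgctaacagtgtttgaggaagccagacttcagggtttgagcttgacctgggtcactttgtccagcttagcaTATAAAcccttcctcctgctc
The TATAAA begins 26 bases before the start of *Prss28* and 21 bases before that of *Prss29*, and the sequences are 62.4% identical when aligned end to end. In a search added after values had been seen, on the sense strand from 40 to 21 bases before the start, TATAAA occurred in 3 of the 15 genes (*Prss28*, *Prss29* and *Ifitm6*) in 508 of 21617 coding genes (2.35%) and in 76 of 7932 genes with a mean of at least 10 TPM (0.958%). A match is a description of letters and not of a binding site.

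Others of the 15 were also highest in control 1 and lowest in control 2. *Cyp26a1* (ENSMUSG00000024987, chr19:37686241-37689984, plus strand), which degrades retinoic acid, had 1274 TPM in control 1, 13.3 in control 2 and 341 in control 3. *Sftpd*, the secreted lectin surfactant protein D, had 188, 3.61 and 99.0 TPM. *Gjb2*, the gap junction protein connexin 26, had 145, 4.06 and 84.3 TPM. Control 2 was below the nearer of the others by 25.7-fold for *Cyp26a1*, 27.4-fold for *Sftpd* and 20.8-fold for *Gjb2*.

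*Igfbp3*, a carrier of insulin-like growth factors, had 787, 47.3 and 248 TPM. *Depp1* had 390, 2.27 and 9.02 TPM, *Atp6v0d2*, a subunit of the proton pump of vesicles, 181, 1.95 and 19.1 TPM, and *Prap1* 298, 6.79 and 25.9 TPM. In these 4 genes control 1 was the highest uterus. *Nupr1*, a stress-induced nuclear protein, had 157, 10.4 and 194 TPM and *Pkib*, an inhibitor of protein kinase A, 80.6, 6.52 and 121 TPM, so that control 3 was highest and control 2 alone was low. *Guca2b*, which encodes the peptide uroguanylin, had 141, 2.55 and 40.7 TPM, and *Ifitm6* had 123, 6.52 and 42.1 TPM.

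**Figure D4:**
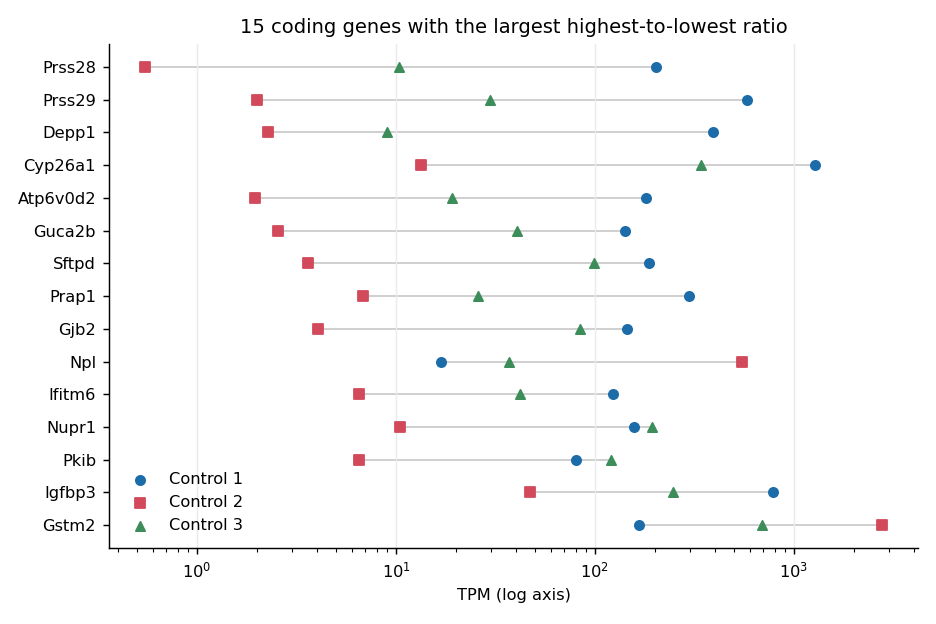
TPM (x axis, log scale) of the 15 coding genes with a mean of at least 50 TPM and the largest ratio of highest to lowest uterus, with 1 symbol per control uterus. Control 2 is the lowest in 13 genes and the highest in *Npl* and *Gstm2*.

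The remaining 2 genes were highest in control 2. *Npl* (ENSMUSG00000042684, chr1:153378354-153425827, minus strand), the lyase that splits sialic acid, had 16.8, 549 and 37.0 TPM. *Gstm2* (ENSMUSG00000040562, chr3:107889004-107893785, minus strand), a glutathione transferase, had 166, 2762 and 691 TPM. Its neighbour *Gstm1* had 348, 2263 and 710 TPM and *Gstm7* had 30.8, 196 and 42.9 TPM. Of 14 glutathione transferases, a list added after values had been seen, 11 had a mean of at least 10 TPM and 9 of these differed by over 2-fold. Control 2 was the highest uterus in 9 of the 11, and the list summed to 3799, 9599 and 3998 TPM. Without control 2 the sums differed by 1.05-fold and 6 members by over 2-fold, beside 1008 of all 8413 genes. Without control 3 it was 4 members, beside 710 genes, and without control 1 it was 7, beside 1021. *Gstm5* went the other way with 311, 81.4 and 123 TPM. Near-identical *Gstm* genes can share reads, so the split among them is uncertain.

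By the ratio to the nearer of the other uteri, 10 coding genes were taken as furthest above in control 2. *Galm*, which interconverts forms of galactose, had 16.6, 196 and 18.9 TPM. *Acot7*, which cleaves acyl-CoA, had 76.7, 1180 and 201 TPM, and *Pfkfb3*, which sets the rate of glycolysis, had 17.1, 152.5 and 26.5 TPM. *Thrsp*, tied to lipid synthesis, had 28.6, 257 and 29.0 TPM, and *Fxyd4*, a regulator of the sodium pump, had 63.1, 973 and 151 TPM. The others were *Npl*, *Tmem158*, *Fads2b*, *Gstm7* and *Angptl7*. The 10 furthest below in control 2 were all among the 15 genes with the largest ratio. Over all 8413 genes, control 2 was over 2-fold above both others in 170 (2.02%) and over 2-fold below both in 130 (1.55%).

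The same ranking was then read for the other 2 uteri, which was decided after values had been seen. Control 1 was over 2-fold above both others in 149 genes (1.77%) and below both in 137 (1.63%). Besides *Depp1*, *Prss29* and *Prss28*, the genes furthest above included *Slc39a8*, a zinc and manganese transporter, with 291, 28.6 and 33.1 TPM, and *Olfm1*, a secreted olfactomedin, with 179, 21.9 and 27.8 TPM. *Slc2a3*, a glucose transporter, was among the furthest below with 24.5, 195 and 127 TPM.

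Control 3 was over 2-fold above both others in 291 genes (3.46%) and below both in 157 (1.87%). Among the furthest above were the epidermal growth factor family member *Areg*, with 36.9, 18.3 and 154 TPM, the splicing kinase *Clk1*, with 57.5, 40.03 and 234 TPM, and the RNA export factor *Nxf1*, with 45.3, 36.2 and 176 TPM. Among the furthest below were *Ltf*, the secreted iron-binding lactoferrin, with 90.6, 81.1 and 11.7 TPM, and *Emb*, with 367, 363 and 66.2 TPM. Control 3 thus gave the most genes apart from both others, 448 in all, and 436 with counts scaled by TMM, which sets the libraries level by their shared genes. The balance of higher and lower genes turned with that scaling, in a count added after values had been seen, since control 3 was then above both others in 211 genes and below both in 225. For control 1 the counts were 190 above and 103 below with TMM.

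Gene lists described the mixture of cells. Of 40 lists, 14 had a summed TPM that differed by over 2-fold between uteri, and 6 did so without control 3. Counts of members over 2-fold stand beside the 20.3% of all genes that differed as much. Of the 8413 genes, 1021 did so without control 1, 1008 without control 2 and 710 without control 3. Stroma markers had close sums of 2405, 2754 and 2440 TPM, a 1.15-fold range, and 3 of 15 members were over 2-fold, near the share of all genes. Without control 1 or control 3 it was 1 member, and without control 2 it was 3. *Vim*, an intermediate filament of mesenchymal cells, had 713, 639 and 579 TPM. The matrix proteins *Dcn* and *Col3a1* had 435, 497 and 379 TPM and 304, 481 and 368 TPM. *Hoxa10* and *Hoxa11*, transcription factors of the uterine stroma, had 163, 211 and 237 TPM and 79.0, 119 and 137 TPM.

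The sum of smooth muscle markers was 2507 TPM in control 1, 1870 in control 2 and 550 in control 3. Of 9 members with a mean of at least 10 TPM, 8 differed by over 2-fold, and control 3 was the lowest uterus in all 9. *Acta2*, the smooth muscle alpha-actin, had 740, 480.5 and 140 TPM, and *Myh11*, the smooth muscle myosin heavy chain, had 54.5, 59.1 and 8.38 TPM. Only *Des* stayed within 2-fold, with 116, 128 and 90.3 TPM. Without control 3 the sums differed by 1.34-fold and no member by over 2-fold. Markers of the mesothelium, which covers the outside of the uterus, moved with them in 4 of 5 genes. *Upk3b*, a uroplakin, had 38.4, 23.4 and 6.98 TPM, *Msln*, mesothelin, 18.9, 13.5 and 3.9 TPM, *Lrrn4* 8.64, 7.45 and 2.08 TPM and *Upk1b* 8.44, 6.16 and 4.82 TPM, each lowest in control 3. *Wt1*, a transcription factor, was instead highest there, with 45.9, 34.2 and 81.7 TPM, so that the list summed to 120, 84.8 and 99.5 TPM. All 3 of its members with a mean of at least 10 TPM differed by over 2-fold, and none did without control 3.

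Endothelium markers had sums of 860, 544 and 446 TPM, a 1.93-fold range, and 6 of 10 members differed by over 2-fold. *Pecam1* had 117, 75.8 and 44.8 TPM and *Cldn5*, of endothelial tight junctions, 124, 60.6 and 20.6 TPM, whereas *Egfl7* had 162, 96.7 and 172 TPM. Control 1 was highest in 9 of the 10. Without control 1 the sums differed by 1.22-fold and 1 member by over 2-fold, beside 1021 of all 8413 genes. Without control 3 it was 2 members, beside 710 genes, and without control 2 it was 6, beside 1008.

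Epithelium markers had sums of 4284, 4485 and 2571 TPM, lowest in control 3, and 8 of 17 members differed by over 2-fold, beside 20.3% of all genes. Without control 3 the sums differed by 1.05-fold and 4 members by over 2-fold, beside 710 of all 8413 genes. Without control 1 or control 2 it was 5 members, beside 1021 and 1008 genes. *Cldn3*, a tight junction protein, had 883, 1168 and 440 TPM, and *Krt8*, an epithelial keratin, had 285, 447 and 255 TPM. *Cdh1*, the adhesion protein E-cadherin, was even with 198, 218 and 196 TPM, as was *Krt7* with 89.5, 83.3 and 82.3 TPM. *Krt19* was high in control 2 alone, with 97.97, 482 and 151 TPM. Epithelial genes thus did not move as one group.

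Gland markers had sums of 1833, 457 and 308 TPM. All 6 members with a mean of at least 10 TPM differed by over 2-fold, beside 20.3% of all genes. The list holds *Prss28*, with 203, 0.55 and 10.4 TPM, and *Prss29*, with 583, 1.99 and 29.7 TPM. Both were chosen above for their ratio, so the sums and counts of the list in part restate that choice. *Spink1*, a protease inhibitor, had 617, 198 and 84.0 TPM and *Prom1*, a membrane glycoprotein, 389, 166 and 141 TPM. The gland transcription factor *Foxa2* was instead highest in control 2, with 10.1, 25.9 and 7.5 TPM, as was *Cxcl15*, a chemokine, with 10.9, 42.9 and 17.6 TPM. Without control 1 the sums differed by 1.48-fold and 5 of the 6 members by over 2-fold, beside 1021 of all 8413 genes. Without control 2 it was 4 members and without control 3 it was 6, beside 1008 and 710 genes.

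Immune cell genes were low to moderate. Macrophage and dendritic cell markers had sums of 881, 1067 and 1251 TPM, and none of 9 members differed by over 2-fold. *Lyz2*, the lysozyme of macrophages, had 229, 216 and 291 TPM, *C1qa*, a complement protein, 57.0, 93.2 and 97.7 TPM, and *Cd74*, of antigen presentation, 213, 286 and 264 TPM. Among markers of T and NK cells, *Gzmb* was highest with 20.1, 22.2 and 30 TPM, and the T cell receptor gene *Cd3e* had 1.86, 1.44 and 0.84 TPM. Neutrophil and mast cell markers summed to no more than 19.7 and 65.0 TPM.

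Antibody genes were the exception. Their list, added after values had been seen, summed to 236, 666 and 1909 TPM. *Igkc*, the kappa light chain, had 140, 426 and 1273 TPM, *Igha*, the heavy chain of IgA, 53.8, 174 and 429 TPM, and *Jchain*, which joins IgA units, 24.2, 43.0 and 160 TPM. All 3 were lowest in control 1 and highest in control 3. *Ighm*, the heavy chain of IgM, had 7.92, 7.21 and 13.5 TPM. Of the B cell markers, *Cd79b*, of the B cell receptor, had 0.59, 0.80 and 2.23 TPM, highest in control 3 as well, *Cd79a*, its partner, had 0.40, 0.33 and 0.60 TPM, and *Ms4a1* was at most 0.06 TPM. Without control 3 the sums differed by 2.82-fold and without control 1 by 2.87-fold.

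Genes of other tissues were low. Blastocyst markers (6 genes) and genes of unrelated organs (9 genes) were all below 1 TPM in every uterus, as were 4 of 5 skeletal muscle markers and 4 of 6 fat cell markers. *Ovgp1*, the oviduct glycoprotein, had 23.8, 44.0 and 29.1 TPM, and the ciliated cell factor *Foxj1* at most 0.27 TPM. Hemoglobin genes were present, with *Hbb-bs* at 448, 264 and 392 TPM.

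**Figure D5:**
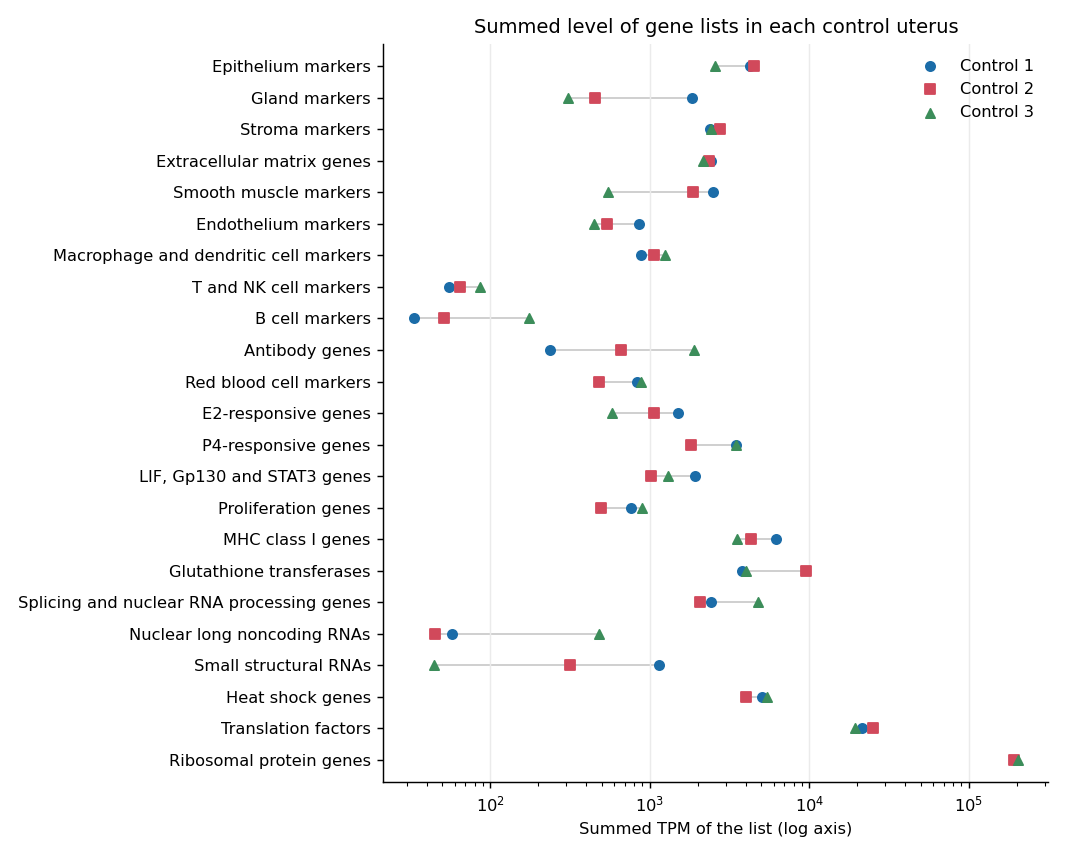
Summed TPM (x axis, log scale) of 23 gene lists in each control uterus (symbols). Stroma markers lie between 2405 and 2754 TPM, whereas smooth muscle markers lie at 550 TPM in control 3 and at 2507 and 1870 TPM in controls 1 and 2.

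Genes of the ovarian hormones were read from receptors to responsive genes. Among the receptors, *Esr1*, the estrogen receptor, had 57.5, 71.7 and 46.8 TPM and *Pgr*, the progesterone receptor, 10.7, 39.7 and 26.6 TPM. *Esr2* was at most 0.05 TPM. Control 2 was the highest uterus for *Esr1* and *Pgr*.

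In the list of E2-responsive genes, all 7 members with a mean of at least 10 TPM differed by over 2-fold, with sums of 1512, 1070 and 585 TPM. *Sprr2f*, a small proline-rich epithelial protein, had 837, 627 and 243 TPM, and *C3*, the complement protein, had 287, 103 and 44.3 TPM. *Lcn2*, the secreted lipocalin 2, had 110, 8.11 and 32.5 TPM. *Igf1*, a growth factor of the stroma, ran the other way with 61.2, 135 and 201 TPM. Control 3 was lowest in 5 of the 7. Without it the sums differed by 1.41-fold and 3 members by over 2-fold, beside 710 of all 8413 genes. Without control 1 or control 2 it was 6 members, beside 1021 and 1008 genes.

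Among 16 P4-responsive genes, 10 differed by over 2-fold, beside 20.3% of all genes. Without control 2 it was 4 genes, beside 1008 of all 8413. The ratio of the highest to the lowest sum then went from 1.91 to 1.01. Without control 1 it was 6 genes, beside 1021, and without control 3 it was 9, beside 710. Of the list sums of 3476, 1829 and 3499 TPM, *Cyp26a1* gave 1274, 13.3 and 341 TPM and *Alox15* 1033, 384 and 1656 TPM. *Cyp26a1* is also one of the 15 genes chosen for their ratio. *Ihh*, the epithelial signal to the stroma, had 289, 91.9 and 192 TPM, while its receptor gene in the stroma, *Ptch1*, had 13.6, 21.9 and 39.5 TPM. *Hand2*, a stromal factor that restrains growth factor signals, had 48.3, 32.5 and 54.6 TPM. *Gata2* and *Sox17*, transcription factors of the epithelium, were highest in control 2 with 38.9, 156 and 42.1 TPM and 237, 416 and 229 TPM. *Lrp2*, an endocytic receptor, was as well, with 24.0, 107 and 29.7 TPM. Over the 16 genes, control 1 was the lowest uterus in 9, control 2 in 6 and control 3 in 1, and control 3 was the highest in 8, control 2 in 6 and control 1 in 2.

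The LIF pathway was described from ligand to targets. *Lif* had 2.02, 4.08 and 12.1 TPM. Its receptor genes *Lifr* and *Il6st* (*Gp130*) had 47.3, 7.06 and 32.4 TPM and 107, 118 and 97.4 TPM, and *Stat3*, the factor they activate, had 139, 107 and 106 TPM. *Il6st* and *Stat3* were thus even between uteri, and *Lifr* was low in control 2 alone.

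Of 13 members of this list with a mean of at least 10 TPM, 8 differed by over 2-fold, beside 20.3% of all genes, and control 2 was the lowest uterus in 9. Without control 2, 1 member differed by over 2-fold, beside 1008 of all 8413 genes. Without control 1 or control 3, 7 did, beside 1021 and 710 genes. *Cebpb* and *Cebpd*, transcription factors, had 116, 28.9 and 70.0 TPM and 120, 34.7 and 64.7 TPM. *Coch* had 128, 48.7 and 152 TPM. *Msx1*, a homeobox factor of the day 4 uterus, was highest in control 2, with 139, 393 and 154 TPM. The feedback inhibitor *Socs3* had 23.6, 15.5 and 37.6 TPM, and *Bcl3* 39.9, 29.97 and 49.9 TPM.

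In the list of decidual genes, the prolactin family genes *Prl8a2* and *Prl3c1* were listed at 0 in every uterus. *Bmp2*, a decidual growth factor, had 3.07, 1.77 and 9.37 TPM, and *Wnt4* had 3.82, 1.32 and 4.55 TPM. *Ptgs2*, the inducible prostaglandin synthase, had 3.61, 1.63 and 32.8 TPM, and *Gja1*, the gap junction protein connexin 43, had 82.2, 55.7 and 227 TPM. Control 3 was highest in these 4 genes but lowest in *Alpl*, an alkaline phosphatase, with 2.65, 3.58 and 1.64 TPM, and *Prl6a1* was highest in control 1, with 0.88, 0.06 and 0.09 TPM. Of the 8 members, 2 had a mean of at least 10 TPM. The list summed to 96.2, 64.1 and 275 TPM, most of it from *Gja1*, which was among the genes furthest above in control 3. These sums, which thus mainly restate *Gja1*, differed by 4.3-fold, by 2.86-fold without control 2 and by 1.5-fold without control 3.

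Proliferation genes had sums of 769, 497 and 893 TPM, and 8 of 12 members with a mean of at least 10 TPM differed by over 2-fold. *Pcna*, the DNA polymerase clamp, had 202, 122 and 263 TPM, and *Mcm3*, of the replication helicase, 60.8, 31.7 and 104 TPM. *Top2a* had 105, 73.0 and 112 TPM. Control 2 was the lowest uterus in 11 of the 12 and control 3 the highest in 9. Without control 2 the sums differed by 1.16-fold and none of the 12 by over 2-fold, beside 1008 of all 8413 genes. Without control 3 it was 2 of the 12, beside 710 genes, and without control 1 it was 7, beside 1021. Of the immediate early genes, 4 of 10 differed by over 2-fold, with *Fos* at 60.4, 20.9 and 35.4 TPM, and control 1 was highest in 8. Without control 2 none of the 10 did so, and without control 1 it was 2, beside 1008 and 1021 of all 8413 genes. Without control 3 it was 4 of the 10, beside 710 genes. Of 9 heat shock genes, 2 differed by over 2-fold, near the 20.3% of all genes, and *Hspa8* had 2738, 2020 and 2831 TPM.

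MHC class I genes had sums of 6151, 4305 and 3512 TPM. *H2-K1* had 2806, 1647 and 1538 TPM and *H2-D1* 789, 523 and 345 TPM. Control 1 was the highest uterus in 8 of 9 members and control 3 the lowest in all 9, and 5 differed by over 2-fold, beside 20.3% of all genes. Without control 3 the sums differed by 1.43-fold and 1 member by over 2-fold, beside 710 of all 8413 genes. Without control 1 it was also 1 member, beside 1021 genes, and without control 2 it was 5, beside 1008.

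Noncoding RNAs of the nucleus and genes of RNA processing were highest in control 3. The following 3 lists were added after values had been seen. Nuclear long noncoding RNAs summed to 58.0, 45.1 and 480 TPM, and *Neat1*, of nuclear paraspeckles, had 19.0, 7.72 and 173 TPM, *Meg3* 0.38, 0.33 and 45.7 TPM and *Malat1* 33.6, 31.2 and 67.1 TPM. *Xist*, already given above for control 3, is also in this list, with 4.94, 5.81 and 194 TPM. Without control 3 the sums differed by 1.29-fold. Of 24 splicing and nuclear RNA processing genes, 18 differed by over 2-fold, beside 20.3% of all genes, and control 3 was the highest in 23. Without control 3 none did, and the sums differed by 1.16-fold. The list holds *Clk1*, *Nxf1*, *Son* and *Taf1d*, which were among the genes furthest above in control 3, so its counts are a description. *Son*, a protein of nuclear speckles, had 55.2, 54.9 and 152 TPM and *Srsf3*, a splicing factor, 197, 173 and 401 TPM. Small structural RNAs, in contrast, were lowest in control 3 and highest in control 1 by their sum. *Rn7sk*, which holds back a transcription elongation factor, had 319, 171 and 21.6 TPM, and *Rmrp*, the RNA of a nuclease, had 76.3, 39.1 and 5.18 TPM.

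Among coding genes split by length into 5 classes, the longest class had a median effective length of 4496 bases, and control 3 was there above the mean of the others by a median of 0.13 on the log2(TPM + 1) scale and the same median was −0.20 in control 1. In the shortest class, with a median of 804 bases, the medians were −0.04 in control 3 and 0.00 in control 1. The part of depth, length and tissue content in the differences between uteri was not tested.

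Short motifs were counted in the promoters of the most abundant genes. In windows from 250 bases before to 50 bases after the annotated start of 21617 coding genes, searched on both strands, TATAAA occurred in 13.2% of all, in 7.9% of 7932 genes with a mean of at least 10 TPM and in 17 of the 100 most abundant. Of these 17, 8 lay among the 29 genes that do not encode ribosomal proteins (27.6%). From 40 to 21 bases before the start on the sense strand, it occurred in 1 of the 100 and in 0 of the 29, beside 2.35% of all. CCAAT occurred in 39.9% of all and in 32 of the 100. GGGCGG, added after values had been seen, occurred in 42.6% of all, in 52 of the 100 and in 61.1% of 7932 genes with a mean of at least 10 TPM. A pyrimidine run of at least 6 bases that begins with C within 5 bases of the start, the form that translation-regulated messages carry, occurred on the sense strand in 10.9% of all and in 14 of 79 ribosomal protein genes (17.7%). The starts were those of the annotation and not measured in these uteri, and a missing match says only that these letters are not in the window.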

How the data were processed

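RNA of 3 control uteri was analysed. The authors trimmed reads with fastp 0.23.2, removed ribosomal RNA reads, mapped to GRCm39 with STAR 2.7.10a and estimated gene levels with RSEM 1.3.3; the annotation release and the strand setting were not given in the sources used here. The deposited expected counts are not normalized, and the deposited TPM corrects them for gene length and is set to sum to 1000000 per uterus. RSEM divides reads that fit several genes between them.

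Names and coordinates came from GENCODE M39, which holds 56017 of the 56748 genes, and sequences from GRCm39. Spread is the SD, CV or highest-to-lowest ratio of TPM. Rounded expected counts gave the biological coefficient of variation in edgeR 4.0.16 (R 4.3.3, filterByExpr, TMM, intercept alone), which was tested on simulated data. No test between groups was made. The members and lists were chosen with earlier results of these data known, and 6 of 40 lists were added after values of these uteri had been seen.

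Named genes were the 30 with the highest mean TPM, mitochondrially encoded genes, the 15 coding genes (mean TPM of at least 50) with the largest highest-to-lowest ratio, the 10 coding genes (mean TPM of at least 100) with the smallest CV, list members, and 10 coding genes above and 10 below in control 2. Names from outside this rule were chosen after their values were seen: genes above or below in control 1 and control 3, abundant coding genes past the 30, short entries, nuclear copies and added lists. Alternatives were TMM, DESeq2 1.42.0 size factors, TPM without mitochondrially encoded genes, other filters and each uterus left out. Some genes are not reported here.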

Additional observations from a re-analysis of the deposited data

How the results depend on the processing

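No paired analysis was possible because the uteri form 1 group. For values that answer a question of the design, a count or ratio was taken as moved when it changed by more than 1.5 times, and a share when it changed by more than 1 SD between uteri. By this measure 14 alternatives moved a value and 36 did not. As a share of expected counts, in which long genes weigh more, the 100 highest entries held 23.8%, mitochondrially encoded genes 4.67% and ribosomal protein genes 8.65%. Without mitochondrially encoded genes in the TPM, the 100 highest held 37.4% and ribosomal protein genes 20.9%. With rank by expected count, 20 of the 30 highest entries remained among the 30.

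The 1705 genes over 2-fold became 4813 at a mean TPM of at least 1 and 490 at a mean of at least 50, where more or fewer genes are tested. With 1 uterus left out they ranged from 710 without control 3, over 1008 without control 2, to 1021 without control 1, since fewer samples are compared. Between pairs at a mean TPM of at least 1, the counts were 2086 for controls 1 and 2, 3183 for controls 1 and 3 and 2976 for controls 2 and 3. The lists over 2-fold numbered 6 without control 3, 10 without control 1 and 11 without control 2. With TMM, 15 lists passed, endothelium markers and MHC class I genes among them at 2.46-fold and 2.07-fold, and without mitochondrially encoded genes 13. Of the 14 lists, all 14 kept their highest uterus with TMM and 12 their lowest. The biological coefficient of variation was 0.363, and 0.445 with no filter on low counts. TMM moved the median gene by 0.08, 0.01 and −0.08 (log2) in controls 1, 2 and 3. For genes below 10 TPM, the depth of control 3 limits what can be read.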
